A study of Mus musculus with 6 samples.

Results

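The genes described here are 44 protein-coding genes that type I interferon is known to induce and whose products act against viruses. They were picked by symbol, from a list made by role, out of the 31130 genes counted in each tumor, and 44 of 44 were found. The measurements came from bulk RNA of orthotopic lung tumors in female C57BL/6 mice aged 6 to 8 weeks at the start. In the IP + LC group, interstitial pneumonia (IP) was induced by oropharyngeal aspiration of bleomycin at 2.0 mg/kg on day 0, the left lung received eGFP-labelled Lewis lung carcinoma (LLC) cells on day 14, and tumor tissue was taken on day 21. The LC group received the same LLC cells without interstitial pneumonia, and each group held 3 tumors. The LLC line is a single transplanted mouse lung carcinoma line, and the tissue was not sorted, so each library mixed tumor cells with host cells. In such bulk tissue, a larger share of cells of one type and more RNA per cell cannot be told apart.

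Type I interferons are cytokines that nearly every cell can make when it senses foreign or misplaced nucleic acid. They bind the receptor formed by IFNAR1 and IFNAR2, whose kinases JAK1 and TYK2 phosphorylate STAT2 among other proteins. STAT2 and IRF9 are subunits of a complex called ISGF3, which binds the interferon-stimulated response element (ISRE) near the genes it turns on. Interferon gamma acts at a different element, the gamma-activated site (GAS), and many genes answer to both cytokines. In the lung, epithelial cells, macrophages and plasmacytoid dendritic cells are known sources of type I interferon.

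The ISRE is shown first because it is the element that ISGF3 binds. The core was searched on both strands as GAAANNGAAA in RefSeq promoter sequence on build GRCm38.p6, from 250 bases before to 50 bases after each start site. A sequence was given for 34 of the 44 genes. The core was present in 18 of these 34 genes (52.9%), compared with 1079 of 27025 mouse genes (3.99%) in windows of the same length. The GAS core, searched as TTCNNNGAA on both strands, was present in 7 of the 34 genes (20.6%), compared with 9.55% of all genes. Matches of these letters were not measured as binding.

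The stretches below run 5′ to 3′ on the strand of the gene, with ISRE core matches in capitals, also where the core lies on the other strand and its reverse complement is seen. They are from founding genes of the family, near-copies within it, the ISGF3 subunit Stat2, the abundant membrane gene Bst2, and 2 of the Ifitm genes, whose counts behaved unlike the rest. Overlapping matches were merged, and the Isg15 run holds 3 of them.
Isg15, chr4:156200855-156200916, minus strand: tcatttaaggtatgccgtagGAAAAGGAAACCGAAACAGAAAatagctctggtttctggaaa
Ifit1, chr19:34640765-34640833, plus strand: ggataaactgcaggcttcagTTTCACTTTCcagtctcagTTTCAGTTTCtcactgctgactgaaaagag
Ifit3, chr19:34583353-34583436, plus strand: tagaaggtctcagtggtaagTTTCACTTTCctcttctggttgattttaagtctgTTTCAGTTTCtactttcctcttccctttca
Ifit3b, chr19:34607749-34607832, plus strand: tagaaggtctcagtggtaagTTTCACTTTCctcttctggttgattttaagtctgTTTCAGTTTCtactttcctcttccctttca
Oas1a, chr5:120907526-120907565, minus strand: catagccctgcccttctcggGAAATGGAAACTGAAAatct
Oas1g, chr5:120887614-120887651, minus strand: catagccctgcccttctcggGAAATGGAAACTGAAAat
Rsad2, chr12:26456543-26456592, minus strand: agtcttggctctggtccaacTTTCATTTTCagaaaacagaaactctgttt
Stat2, chr10:128270256-128270305, plus strand: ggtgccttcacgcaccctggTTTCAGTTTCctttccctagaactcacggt
Bst2, chr8:71537567-71537622, minus strand: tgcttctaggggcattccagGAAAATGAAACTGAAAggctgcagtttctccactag
Ifitm3, chr7:141010716-141010742, minus strand: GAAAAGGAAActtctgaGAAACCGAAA
Ifitm1, chr7:140967976-140968075, plus strand: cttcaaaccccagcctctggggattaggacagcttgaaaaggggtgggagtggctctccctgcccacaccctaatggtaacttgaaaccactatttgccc
The Ifit3 and Ifit3b stretches were the same over all 84 bases, and those of Oas1a and Oas1g over the first 38 bases printed. The Ifitm3 matches lie just downstream of the start site, and the Ifitm1 window held no match to the core. Ifitm2, whose stretch is not printed, held 1 match upstream of its start site (first base at -46). In the test described below, 15 of the 18 genes with the core rose, and 12 of the 16 without it. Among all tested genes, 16.8% rose. Oasl1, Irf7 and Ifit2 rose without the core. Whether the core bears on the change was not tested.

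RNA was counted by bulk RNA barcoding, in which the 3′ end of each polyadenylated transcript is tagged with a unique molecular identifier (UMI), so that 1 count stands for 1 captured molecule. The LC libraries held 592733, 1379759 and 1356381 UMIs and the IP + LC libraries 1344042, 1631066 and 1336919. LC replicate 1 was the shallowest, and 3 UMIs in it equal 5.17 CPM (counts per 1000000 UMIs, after TMM scaling of the library sizes), against 1.75 to 2.54 in the other libraries. The 2 groups also differed widely in tissue markers. The summed level of 5 type 2 alveolar markers was 33790 to 41890 CPM in the LC tumors and 5826 to 10820 in the IP + LC tumors, that of 4 airway markers was 43770 to 50000 against 3028 to 6530, and that of 4 proliferation markers was 83.9 to 365 against 719 to 848. The part of these differences in the results that follow was not tested.

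Most of the 44 genes were higher in the IP + LC tumors. After genes with too few counts were set aside, 43 of them were among the 11240 genes tested. By the quasi-likelihood test of edgeR, with p-values adjusted by Benjamini-Hochberg over all 11240 genes and a limit of 0.1, 36 of the 43 (83.7%) rose, when 16.8% of all tested genes did. A single one, Ifitm1, fell (2.33%), when 19.6% of all tested genes did. The 6 genes not called were Ifi35, Parp12, Ifitm3, Isg20, Ifih1 and Ifitm2. The test was passed with a rise of at least 2-fold by 30 of the 43, compared with 9.28% of all tested genes, and 9 of the 30 rose at least 4-fold, compared with 1.9% of all tested genes. In 35 of the 43 every IP + LC tumor lay above every LC tumor, which held for 21.6% of all tested genes. The median log2 fold change of the 43 genes was 1.55, with a range from -0.52 to 2.54, beside 0.02 for all tested genes. Without LC replicate 1, 39 of 44 genes rose, when the genes called higher among all tested went from 1885 to 3324, and without IP + LC replicate 2, 28 of 43 rose, when that number was 897. A gene was tested once 3 libraries reached about 7.41 CPM (before TMM scaling). This was met by the LC tumors alone for 33 of the 43 genes, of which 26 (78.8%) rose, compared with 14.9% of the 9306 such genes among all tested, with medians of 1.19 and -0.045 on the log2 scale. The other 10 (Dhx58, Ifi205, Ifit3b, Mx1, Oas1a, Oas1b, Oas1g, Oas2, Oas3 and Oasl1) would not have been tested on the LC tumors alone, and all 10 rose, as a gene that enters through its higher group tends to. At least 4-fold rises numbered 3 of the 33 (Rsad2, Ifi204 and Isg15), or 9.09%, compared with 0.527% of the 9306. The gene left out, Mx2, had 1, 8 and 2 UMIs in the LC tumors and 8, 20 and 13 in the IP + LC tumors.

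**Figure D1:**
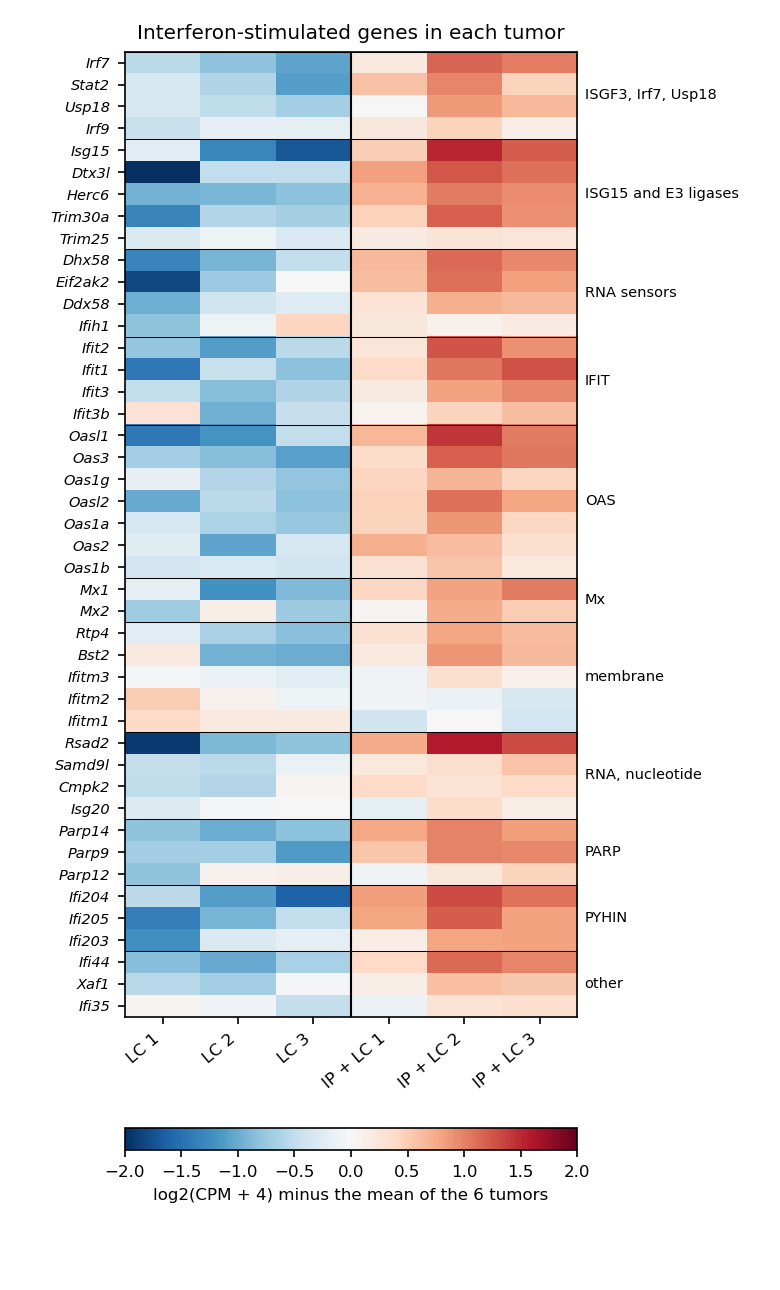
Level of the 44 genes in each of the 6 tumors, as log2(CPM + 4) minus the gene's mean over the 6 tumors (red above, blue below), with genes grouped by role and the LC and IP + LC tumors separated by a black line. The IP + LC side is red in nearly every row, and the Ifitm1 and Ifitm2 rows run the other way.

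**Figure D2:**
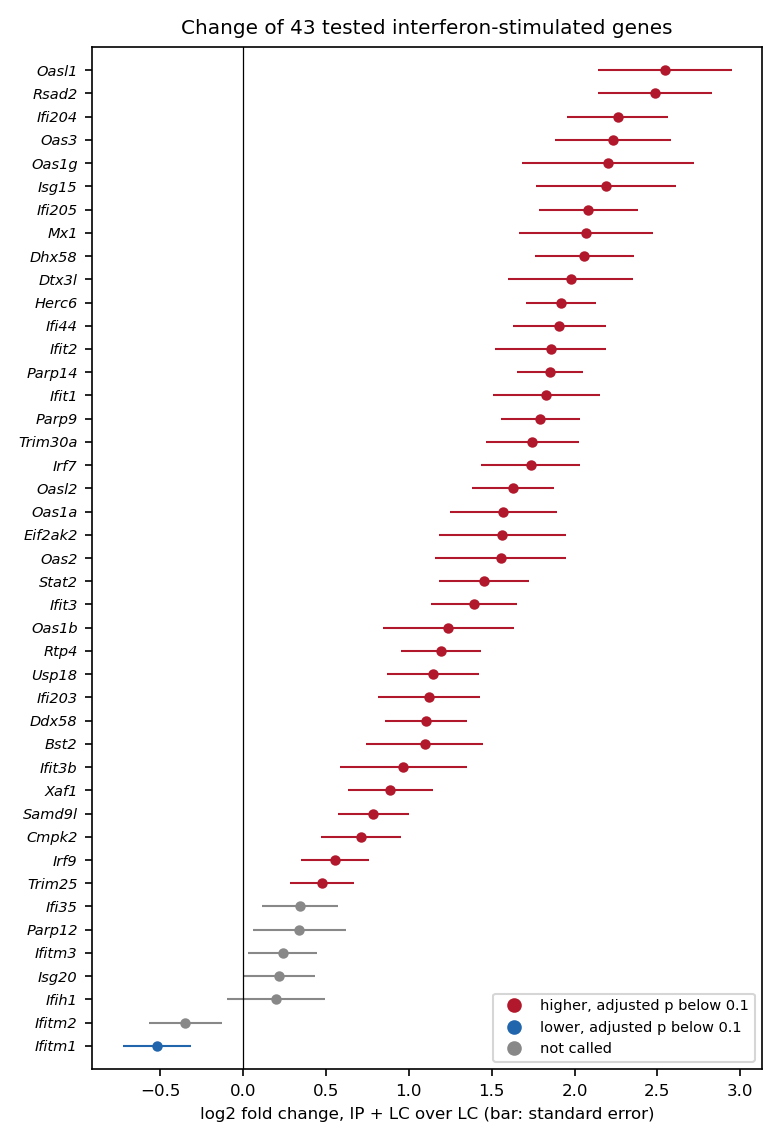
Fitted log2 fold change of IP + LC over LC for the 43 tested genes, ordered by size, with bars for 1 standard error and color for the call at an adjusted p below 0.1. Of these genes, 36 are called higher, 1 is called lower and 6 are not called, and the values run from -0.52 (Ifitm1) to 2.54 (Oasl1).

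The subunits of ISGF3 and the regulators of the response rose in 4 of 4 cases. This count, and those of the gene groups below, stand beside the 16.8% of all tested genes that rose. Stat2 (ENSMUSG00000040033), the subunit that brings the transactivation domain, held 48.2, 39.2 and 26.3 CPM in the LC tumors and 94.3, 125 and 85.0 in the IP + LC tumors. The groups did not overlap, and the rise was 1.45 ± 0.27 on the log2 scale (SE, adjusted p = 0.00583), the scale of every rise and value given for a gene hereafter. Irf7, the transcription factor that amplifies interferon production and is itself interferon-induced, held 58.5, 47.8 and 39.8 CPM and 100.1, 199.6 and 180.1 CPM, a rise of 1.74 ± 0.30 (adjusted p = 0.00423). IP + LC replicate 1 held the least of the 3 and still lay above every LC tumor. Irf9, the DNA-binding subunit of ISGF3, moved less. Its levels were 37.9, 47.0 and 45.8 CPM in the LC tumors and 62.4, 73.5 and 58.1 in the IP + LC tumors, a rise of 0.56 ± 0.21 (adjusted p = 0.0742) and its call was lost when any single tumor other than LC replicate 1 was left out (adjusted p from 0.106 to 0.243). Usp18, which removes ISG15 from proteins and dampens the receptor, rose by 1.15 (adjusted p = 0.0167).

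Isg15 and the ubiquitin ligases rose in 5 of 5 cases. Isg15 (ENSMUSG00000035692, chr4:156199424-156200818), a ubiquitin-like protein that is attached to other proteins, held 115, 52.5 and 39.0 CPM in the LC tumors and 191, 399 and 320.2 in the IP + LC tumors. The means were 68.9 ± 40.8 (SD, n = 3) and 304 ± 105 (SD, n = 3), and the rise was 2.19 ± 0.42 on the log2 scale (adjusted p = 0.00664). LC replicate 1 was the highest LC tumor and IP + LC replicate 1 the lowest IP + LC tumor, with no overlap. Of the Isg15 transcript, 63.8% is matched in a second annotated gene, AC151275.1, so its count is uncertain to that extent. Herc6, the main ligase that attaches ISG15 in mouse, held 28.8 ± 1.55 (SD, n = 3) CPM in the LC tumors and rose to 109 ± 13.4 (SD, n = 3) CPM, by 1.92 (adjusted p = 0.000909). Dtx3l, a ligase that partners Parp9, rose by 1.98, and Trim30a, an interferon-induced TRIM protein, by 1.75. Trim25, which ubiquitinates the sensor RIG-I, rose by the least of the group, 0.48 (adjusted p = 0.0951), and lost its call in the same 5 cases (adjusted p from 0.146 to 0.234).

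Of the sensors of viral RNA, 3 of 4 rose. Dhx58 encodes LGP2, a regulator of the RIG-I-like receptors, and rose by 2.06 (adjusted p = 0.00204). Eif2ak2, the kinase PKR that halts translation on double-stranded RNA, rose by 1.56, and Ddx58, which encodes RIG-I, by 1.1. Ifih1, which encodes the RIG-I-like receptor MDA5, held 20.7, 36.0 and 54.2 CPM in the LC tumors and 46.4, 42.0 and 44.3 in the IP + LC tumors. These groups overlapped, with LC replicate 3 the highest of the 6, and the log2 fold change was 0.20 ± 0.29 (adjusted p = 0.655). Without LC replicate 1, which held 12 UMIs of Ifih1, its value turned to -0.013 (adjusted p = 0.965).

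The IFIT family, whose proteins bind viral RNA that lacks the host's cap methylation, rose in 4 of 4 cases. The genes lie together on chromosome 19 (chr19:34550694-34650009, GRCm38). Ifit1 held 37.9, 79.1 and 60.2 CPM in the LC tumors and 144, 232 and 269 in the IP + LC tumors, a rise of 1.83 ± 0.32 (adjusted p = 0.00456). Ifit3 held 63.7, 48.6 and 58.5 CPM and 103, 161 and 181 CPM, a rise of 1.39 ± 0.26 (adjusted p = 0.00574), and Ifit2 rose by 1.86. IP + LC replicate 1 was the lowest IP + LC tumor for every IFIT gene. Ifit3b, the near-copy of Ifit3, held 24.1, 7.83 and 12.7 CPM and 20.3, 27.4 and 31.2 CPM. Its groups overlapped, since LC replicate 1 lay above IP + LC replicate 1, and its rise of 0.97 (adjusted p = 0.0927) was also lost without any single tumor other than LC replicate 1 (adjusted p from 0.119 to 0.323). Because 97.4% of the longest Ifit3 transcript is matched in Ifit3b at 95% identity or more over at least 81 bases, the split of counts between these 2 genes is uncertain.

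The 2′-5′-oligoadenylate synthetase (OAS) family, which activates RNase L when it meets double-stranded RNA, rose in 7 of 7 cases with a median log2 fold change of 1.63. Oasl1, an OAS-like protein without synthetase activity that represses translation of Irf7, was the gene with the largest fitted rise of the 43. It held 2, 6 and 12 UMIs in the LC tumors and 38, 86 and 51 in the IP + LC tumors. This was 6.10 ± 3.58 (SD, n = 3) and 38.3 ± 11.4 (SD, n = 3) CPM, a log2 fold change of 2.54 ± 0.40 (adjusted p = 0.00296). Oas3 held 10.3, 8.62 and 6.78 CPM and 25.4, 48.4 and 43.6 CPM, a rise of 2.23 ± 0.35 (adjusted p = 0.0028). Of the last 500 bases of Oas3, 27.8% are matched in other genes by the criterion used for Ifit3, so its count is uncertain to that extent. Oasl2 rose by 1.63 and Oas2 by 1.55. Every IP + LC tumor lay above every LC tumor in all 7 OAS genes, which held for 21.6% of all tested genes. Of the 7, all but Oasl2 would not have been tested on the LC tumors alone.

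Few LC molecules lay behind Oas3 (6, 11 and 8 UMIs) and Oas2 (5, 4 and 9 UMIs), and the remaining OAS genes also rested on few. Oas1a held 6, 10 and 8 UMIs in the LC tumors and 29, 51 and 28 in the IP + LC tumors, a rise of 1.57 ± 0.32 (adjusted p = 0.00854). Oas1g held 2, 2 and 1 UMIs and 10, 16 and 10 UMIs, a rise of 2.2 ± 0.52 (adjusted p = 0.0146). The ratio of its summed UMIs, scaled by library, was 4.89 with an exact 95% interval from 1.91 to 16, which covers counting error only. All of the longest Oas1a transcript (100%) is matched in Oas1g by the same criterion, so these 2 are also uncertain one by one. Oas1b, which carries a premature stop in common laboratory strains, held 2, 5 and 4 UMIs and 11, 18 and 10 UMIs. It rose by 1.24 ± 0.40 (adjusted p = 0.046), and its call was lost without LC replicate 2 or 3 or IP + LC replicate 1 or 2 (adjusted p from 0.122 to 0.200). With every tumor kept, the call was also lost in DESeq2 (adjusted p = 0.198), without a filter on low counts (adjusted p = 0.158) and with the replicate number as a block.

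Mx1, a GTPase that blocks influenza viruses, held 12.1, 3.92 and 5.93 CPM in the LC tumors and 20.3, 28.0 and 33.4 in the IP + LC tumors, without overlap. These LC levels rest on 7, 5 and 7 UMIs. Its rise was 2.07 ± 0.40 (adjusted p = 0.00698). The Mx1 gene of C57BL/6 mice lacks coding exons, so its counts are a readout of the locus and not of a working protein.

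The plot of levels by tumor sets 4 genes that rose beside the pair of Ifitm genes described next. The 5 membrane proteins did not move together. Rtp4, an interferon-induced receptor transporter, rose by 1.19 ± 0.24 (adjusted p = 0.00788). Bst2, which encodes tetherin and holds budding virions at the cell surface, held 567, 257 and 248 CPM in the LC tumors and 571, 919.9 and 783 in the IP + LC tumors. It rose by 1.09 ± 0.35 (adjusted p = 0.046), but LC replicate 1 reached nearly the level of IP + LC replicate 1, and the call was lost without LC replicate 2 or 3 or IP + LC replicate 2 or 3 (adjusted p from 0.120 to 0.168).

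The Ifitm genes encode small membrane proteins that block viral fusion, and they lie together on chromosome 7 (chr7:140954837-141010770, GRCm38). Ifitm3 held 1279, 1196 and 1114 CPM in the LC tumors and 1228, 1623 and 1385 in the IP + LC tumors. The groups overlapped and the log2 fold change was 0.24 ± 0.21 (adjusted p = 0.426). Ifitm2 held 477, 354 and 313 CPM and 319, 309 and 268 CPM, also with overlap, and its value was -0.35 ± 0.22 (adjusted p = 0.273). Of the Ifitm2 transcript, 69.8% is matched in other genes by the criterion used for Ifit3, so its count is uncertain. Ifitm1 held 127, 109.7 and 108 CPM in the LC tumors and 71.1, 95.7 and 72.6 in the IP + LC tumors, and here every IP + LC tumor lay below every LC tumor. Of the longest Ifitm1 transcript, 36.2% is matched in Gm7676, and 59.8% of its last 500 bases, so its count is uncertain as well. Its log2 fold change was -0.52 ± 0.21 (adjusted p = 0.0926). This call was lost without any single tumor other than LC replicate 1 (adjusted p from 0.126 to 0.307). With every tumor kept, it was also lost in edgeR with library size only (adjusted p = 0.245) or no filter on low counts (0.419). The same held in DESeq2 (adjusted p = 0.140) and with the replicate number as a block. Without LC replicate 1, Ifitm3 passed the limit, at 0.30 on the log2 scale (adjusted p = 0.0944), as did Ifi35 at 0.46 (adjusted p = 0.0518).

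**Figure D3:**
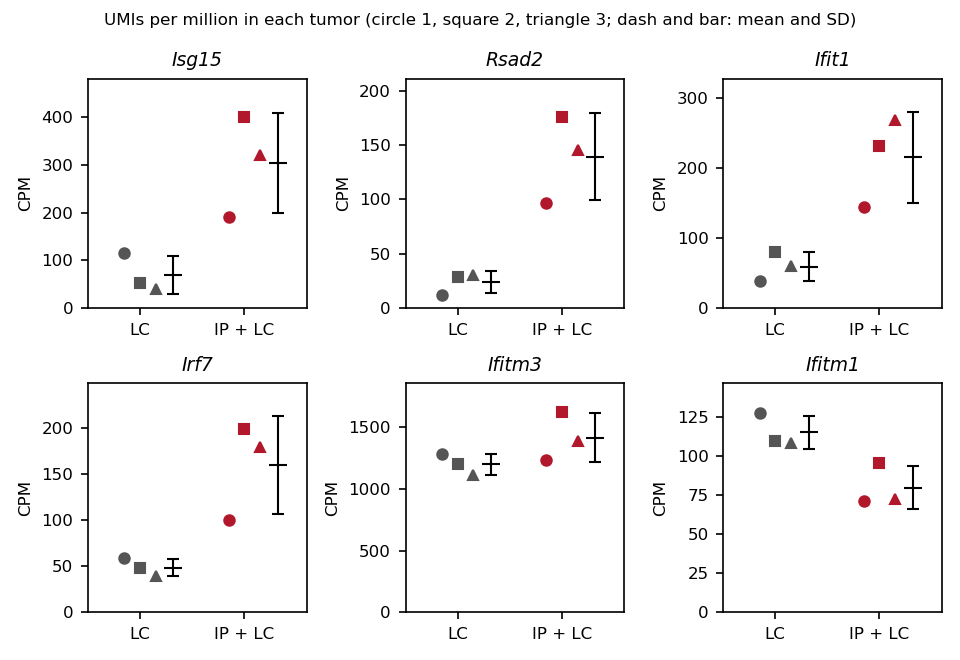
CPM of Isg15, Rsad2, Ifit1, Irf7, Ifitm3 and Ifitm1 in each LC (grey) and IP + LC (red) tumor, with the mean and SD of 3 tumors in black and axes from 0. The groups do not overlap for Isg15, Rsad2, Ifit1 and Irf7, they overlap for Ifitm3, and the IP + LC tumors lie below the LC tumors for Ifitm1.

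Of the enzymes that act on RNA and nucleotides, 3 of 4 rose. Rsad2 (ENSMUSG00000020641, chr12:26442746-26456452) encodes viperin, which makes a chain-terminating nucleotide. It held 12.1, 28.2 and 30.5 CPM in the LC tumors and 96.4, 176 and 145 in the IP + LC tumors. The means were 23.6 ± 10.1 (SD, n = 3) and 139 ± 40.2 (SD, n = 3), with a rise of 2.48 ± 0.34 (adjusted p = 0.00167). Its neighbour Cmpk2 (chr12:26469204-26479837), a mitochondrial nucleotide kinase, held 24.1, 22.7 and 37.3 CPM and 47.9, 44.4 and 47.9 CPM. The Cmpk2 rise was 0.71 ± 0.24 (adjusted p = 0.0553), and its call was lost without LC replicate 2 or any 1 IP + LC tumor (adjusted p from 0.127 to 0.213). Whether the 2 neighbours differ in their change was not tested. Samd9l, a restriction factor of poxviruses, rose by 0.79, a call lost without LC replicate 2 (adjusted p = 0.114) and after all libraries were thinned to the smallest, where the rise was 0.48 (adjusted p = 0.224). Isg20, an exonuclease, held 82.7, 98.7 and 101 CPM and 87.7, 131 and 110.4 CPM, with overlap and a value of 0.21 ± 0.22 (adjusted p = 0.495).

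Parp14 and Parp9, enzymes that add ADP-ribose or read it, rose by 1.85 (adjusted p = 0.000859) and 1.79 (adjusted p = 0.00149). Parp9 and Dtx3l lie on opposite strands of chromosome 16 and share 9.40% and 8.0% of their exonic bases, where reads cannot be assigned if the strand was not used. Parp12 had a value of 0.34 and did not pass (adjusted p = 0.404). The PYHIN genes, a family that includes DNA sensors, rose in 3 of 3 cases. Ifi204 held 53.4, 34.5 and 22.9 CPM in the LC tumors and 143, 198 and 169.9 in the IP + LC tumors, a rise of 2.26 ± 0.31 (adjusted p = 0.00157). Ifi205 rose by 2.08, and Ifi203 by 1.12, the latter a call lost without IP + LC replicate 2 (adjusted p = 0.110). Of the longest transcripts of Ifi203 and Ifi204, 41.0% and 59.4% are matched in other genes, but 0% of their last 500 bases, where 3′ counting reads. Of the last 3 genes, Ifi44 rose by 1.91 and Xaf1, a pro-apoptotic protein, by 0.89, a call lost without LC replicate 2 (adjusted p = 0.140) or IP + LC replicate 2 (0.128). Ifi35 had a value of 0.34 (adjusted p = 0.301).

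The rise was unequal among the IP + LC tumors. IP + LC replicate 2 was the highest of the 3 for 31 of the 43 genes (72.1%), compared with 30.7% of all tested genes, and replicate 1 was the lowest for 35 (81.4%), compared with 35.4%. The ratio of replicate 2 to replicate 1 had a median of 1.38 over the 43 genes and 0.998 over all tested genes. Summed over the 44 genes, the level was 3821, 3371 and 3252 CPM in the LC tumors and 5141, 7354 and 6510 in the IP + LC tumors. Ifitm3 alone made up 33.5% to 35.5% of the sum in the LC tumors and 21.3% to 23.9% in the IP + LC tumors. Without Bst2 and the 3 Ifitm genes, the sum was 1371, 1454 and 1469 CPM in the LC tumors and 2952, 4407 and 4002 in the IP + LC tumors. These 43 genes are not 43 independent observations, since they were counted in the same 6 libraries.

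Markers of immune and other cells were read beside these sums. Among all tested genes, 16.8% rose and 19.6% fell, and the counts of markers below stand beside these shares. Which cells a marker transcript came from was not tested. The summed level of 7 macrophage markers was 2301, 840 and 606 CPM in the LC tumors and 2235, 2819 and 2557 in the IP + LC tumors. Of the 7, 3 rose (Adgre1, C1qa and C1qc), and C1qb, Cd68, Csf1r and Mrc1 were not called. In LC replicate 1, the shallowest library, the macrophage sum lay within the range of the IP + LC tumors. Of that sum, C1qa, C1qb and C1qc held 568, 580 and 529 CPM. The sum of LC replicate 1 over all 44 antiviral genes was the highest of the LC tumors and below every IP + LC tumor. Its sum without Bst2 and the Ifitm genes was the lowest of the 6. The 4 monocyte markers, all 4 of which rose, summed to 418 to 479 CPM in the LC tumors and 687 to 921 in the IP + LC tumors. Vcan rose by 1.75, and Ccr2, Ly6c2 and Plac8 by 0.67 to 0.83. All 6 alveolar macrophage markers fell, with sums of 1675 to 2102 against 228 to 461 CPM, as did 3 of the 6 neutrophil markers, with sums of 821 to 1956 against 263 to 344 CPM. The 4 pan-leukocyte markers summed to 792 to 1131 against 970 to 1403 CPM, with 1 of 4 higher and the T cell markers to 89.5 to 121 against 81.9 to 166 CPM. The 4 B cell markers all fell, from 196 to 283 CPM to 34.1 to 137 in sum, as did 5 of 5 endothelial and 4 of 4 type 1 alveolar markers. Of the genes of NK and cytotoxic cells, Gzmb rose by 1.88 and Gzma and Klrb1c fell (-1.34 and -0.95), and their summed levels overlapped, at 133 to 199 and 125 to 172 CPM. The 6 markers of plasmacytoid dendritic cells summed to 141 to 452 CPM in the LC tumors and 188 to 264 in the IP + LC tumors. Of the 3 tested, Cox6a2 fell (log2 fold change -2.29, adjusted p = 0.00157) and Spib and Tcf4 were not called. Most of the sum in the LC tumors came from Tcf4 (56.8, 324 and 306 CPM) and Cox6a2 (60.3, 99.5 and 68.6 CPM). Whether these transcripts came from plasmacytoid dendritic cells was not tested. Their defining marker Siglech had too few counts for the test, with 1, 7 and 15 UMIs in the LC tumors and 6, 16 and 8 in the IP + LC tumors. The part of macrophages, monocytes and other cells in the rise of the antiviral genes was not tested.

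**Figure D4:**
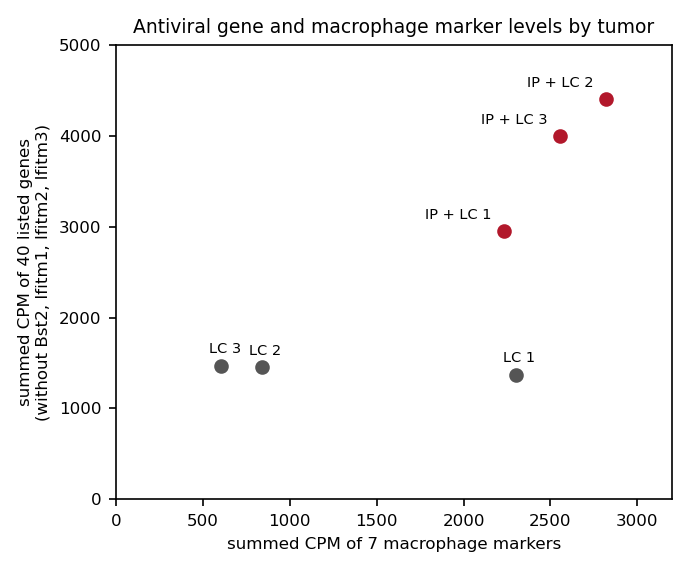
Summed CPM of 40 of the 44 genes (without Bst2 and the Ifitm genes) against the summed CPM of 7 macrophage markers, with 1 point per tumor (LC grey, IP + LC red) and both axes from 0. LC replicate 1 lies at 2301 CPM of macrophage markers, within the range of the IP + LC tumors, and at 1371 CPM of these antiviral genes, below all of them. Over all 44 genes it holds 3821 CPM, the highest of the LC tumors and below the IP + LC tumors. LC replicate 1 is the shallowest library, and any link between these sums was not tested.

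Other genes of the interferon pathway were read from lists made by role, apart from the 44. Of 91 such genes, 86 were tested, 54 (62.8%) rose and 2 (2.33%) fell, with a median log2 fold change of 0.99. Of all tested genes, 16.8% rose and 19.6% fell. Of the 86, 74 reached the filter in the LC tumors alone, and 45 of the 74 (60.8%) rose. Of the 9306 such genes among all tested, 14.9% rose. Among the receptors and their kinases, 1 of 8 tested genes (12.5%) rose, a share near the 16.8% of all tested genes. It was Ifnar1, a chain of the type I receptor, which held 18.9, 26.6 and 27.1 CPM in the LC tumors and 58.0, 49.0 and 47.9 in the IP + LC tumors, without overlap, a rise of 1.05 ± 0.22 (adjusted p = 0.00947). The kinases Jak1 (0.17, adjusted p = 0.597) and Tyk2 (0.57, adjusted p = 0.165) were not called.

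Of the sensors and adaptors that lead to interferon production, 7 of 13 tested rose (53.8%, beside 16.8% of all tested genes). Of the 13, Cgas, Ikbke, Ticam1 and Tlr7 would not have been tested on the LC tumors alone. The largest values were those of Zbp1, a sensor of Z-form nucleic acid (2.94), Ikbke, a kinase that acts on interferon regulatory factors (2.22), and Sting1, the adaptor of cytosolic DNA sensing (1.69). Irf5 (1.42), the DNA sensor Cgas (1.34), Unc93b1 (0.87), which carries Toll-like receptors to the endosome, and the adaptor Myd88 (0.78) also rose. Irf3, the factor that first switches on interferon beta, had a value of -0.36 and was not called (adjusted p = 0.253).

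Of 8 regulators of the response, 5 rose (62.5%, beside 16.8% of all tested genes). Socs1, an inhibitor of the JAK kinases that both interferon types induce, held 9, 7 and 8 UMIs in the LC tumors and 160, 232 and 197 in the IP + LC tumors, a rise of 3.98 ± 0.33 (adjusted p = 0.000565). It would not have been tested on the LC tumors alone. Irf1, a transcription factor that interferon gamma induces strongly, rose by 1.84, Socs3 by 1.80, Irf8 by 1.30 and the phosphatase gene Ptpn6 by 0.76. Of 57 other interferon-induced genes tested, 41 rose (71.9%, beside the same 16.8%). The 10 largest values were those of Slfn9 (3.21), Ifi211 (2.82), Gm4951 (2.72), Sp140 (2.07), Phf11a (1.95), Slfn8 (1.94), Sp110 (1.82), Rnf213 (1.74), Tap1 (1.72) and Psmb8 (1.64), of which Tap1 and Psmb8 serve antigen presentation. Slfn9, Gm4951, Phf11a, Slfn8 and Sp110 among them, and Adar among the others that rose, would not have been tested on the LC tumors alone. The other 31 that rose were Adar, Samhd1, Daxx, Ogfr, Ube2l6, Psmb9, Mov10, Ifi207, Apobec3, Aim2, Phf11b, Slfn1, Znfx1, Parp10, Helz2, Parp11, Nmi, Mndal, Casp4, Ifi209, Ms4a4c, Trim21, Pml, Zc3hav1, Epsti1, Uba7, Trim30d, Lgals3bp, Tor3a, Slfn2 and Sp100, with values from 0.60 to 1.63. The 2 that fell were Ifi27 (-0.51, adjusted p = 0.0797) and Ifi27l2a (-0.74, adjusted p = 0.0391).

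The Gbp and Irg GTPases, which attack the vacuoles of intracellular pathogens and are known above all as targets of interferon gamma, rose in all 17 tested cases of 20 listed. Among all tested genes, 16.8% rose. The median log2 fold change of the 17 GTPase genes was 2.78, with a range from 1.39 to 4.43. Of the 17, 13 rose at least 4-fold, compared with 1.9% of all tested genes. The LC tumors alone would have let 10 of the 17 into the test. These 10 rose too, 8 of them at least 4-fold, compared with 3 of the 33 antiviral genes that entered in that way. Of the 9306 genes of all tested that entered so, 14.9% rose, and 0.527% rose at least 4-fold. Gbp2, an abundant guanylate-binding protein, held 62, 143 and 134 UMIs in the LC tumors and 1671, 2471 and 1570 in the IP + LC tumors (log2 fold change 3.51). Whether the 2 lists differ was not tested. Of the ligands, Ifng, the gene of interferon gamma, had 0 UMIs in every LC tumor and 8, 14 and 11 UMIs in the IP + LC tumors, which is at least 2.49-fold higher when 3 UMIs are set for each LC library. It had too few counts for the test. The keratinocyte interferon Ifnk had 1 UMI in IP + LC replicate 2 and 0 elsewhere, and the other type I and type III interferon genes were not analysed here.

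**Figure D5:**
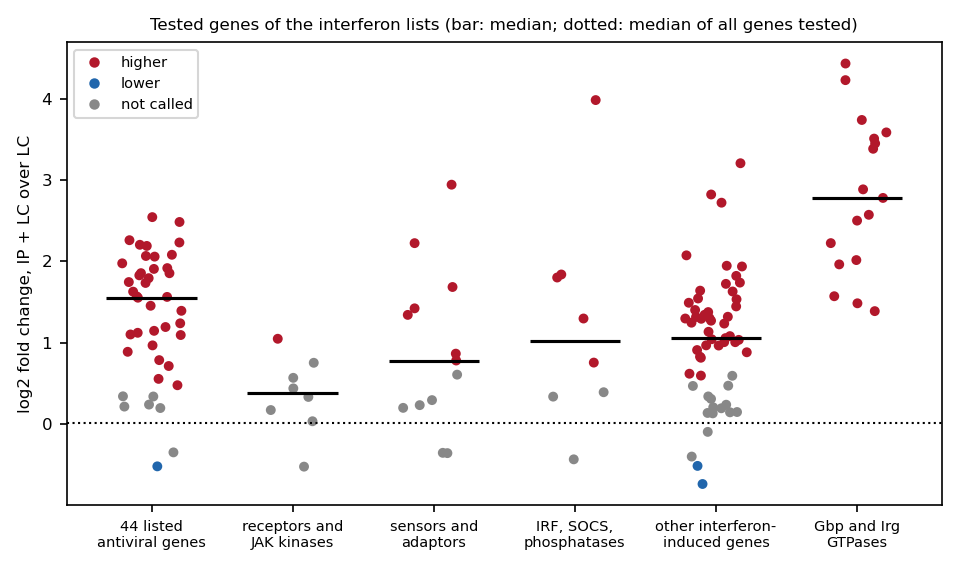
Fitted log2 fold change of IP + LC over LC for the tested genes of 6 lists, with 1 point per gene colored by its call, a bar for the median of each list and a dotted line at 0.02, the median of all genes tested. The medians are 1.55 for the antiviral genes and 2.78 for the Gbp and Irg GTPases.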

How the data were processed

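Tumor RNA of 3 LC and 3 IP + LC mice was counted by bulk RNA barcoding and sequencing with UMIs of 10 bases. The authors extracted UMIs with UMI-tools 1.1.1, trimmed reads with Trim Galore 0.6.7 and dropped those shorter than 20 bp, aligned them to GRCm38 with HISAT2 2.2.1, assigned them to genes with featureCounts 2.0.1 and counted distinct UMIs. The deposited values are raw UMI counts per gene, 1 table for each tumor. Which annotation release was used, and whether the strand was, is not given in the sources used here.

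The counts were then fitted with edgeR 4.0.16 under R 4.3.3: filterByExpr (minimum count 10, minimum total 15), TMM scaling (factors from 0.905 to 1.07), the quasi-likelihood test of IP + LC against LC without a block, and Benjamini-Hochberg adjustment over 11240 genes and a call below 0.1. Levels in CPM use the TMM-scaled library sizes and are not divided by transcript length. The fit was repeated with upper quartile factors, size factors of DESeq2 or library size only, with no filter or a stricter one, by DESeq2 1.42.0, by voom of limma 3.58.1 with and without sample quality weights, with a replicate block, at a limit of 0.05, after thinning to 592733 UMIs per library, and without each tumor in turn.

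The genes, lists and tests were chosen with earlier results of these data known, so no test over a list was made. Every one of the 44 genes is named. Values in every tumor are given for the 5 largest and 5 smallest fold changes, genes called lower, the 3 highest mean CPM, Stat2, Irf9 and Irf7, the founding families (Isg15, Ifit1, Ifit3, Mx1, Oas1a, Rsad2), and up to 5 genes whose call changed most when 1 tumor was left out. Symbols, positions and transcripts came from GENCODE M21, in which 31130 of 31130 identifiers were found, and promoters from RefSeq. The 2 groups are separate tumors per the labels, and p-values measure the spread between these tumors. With 3 against 3, an exact permutation test of a single value cannot go below 0.1. Some genes of the interferon pathway are not reported here.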

Additional observations from a re-analysis of the deposited data

How the results depend on the processing

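Of the 37 antiviral genes called, 27 kept their call under every alternative in which they were tested. That was all 17 for 16 of them and 15 or 16 for the other 11, which the stricter filter or thinning set aside in the rest. Of the 43 tested genes, 42 kept their direction. The exception was Ifih1, which ranged from -0.013 without LC replicate 1 to 0.54 without LC replicate 3. With every tumor kept, calls were lost for Irf9, Ifit3b and Trim25 (upper quartile factors, DESeq2, the block, thinning, a limit of 0.05, and for Trim25 also DESeq2's size factors and no filter), Oas1b (no filter, DESeq2, the block), Cmpk2 (DESeq2, a limit of 0.05) and Samd9l (thinning). Genes called higher numbered 24 (of 31 tested) to 36 under the alternatives that kept all tumors, and 28 to 39 with 1 tumor left out. Ifitm1 was the gene called lower, and 0 genes were called lower in edgeR with library size only, with no filter on low counts or at a limit of 0.05, and in DESeq2. With 1 tumor left out, 0 to 1 were. The median log2 fold change was 1.72 with library size only, 1.13 for genes with at least 10 UMIs in every library, 1.25 after thinning, and 1.38 to 1.62 with 1 tumor left out, lowest without IP + LC replicate 2. Scaling by library size only moved the median of all genes tested from 0.02 to 0.18 and the share of higher among all calls from 46.1% to 58.3%. Pathway genes called lower were 1 with library size only, 0 with no filter, 5 in voom with sample quality weights, 1 at a limit of 0.05, 1 after thinning and 0 to 5 with 1 tumor left out, where 40 to 64 were called higher. Over all genes, 3180 were called higher in voom with sample quality weights. After thinning, 1014 were called higher and 1338 lower, and with 1 tumor left out 897 to 3324 and 1368 to 3367, with the highest numbers without LC replicate 1 and the lowest without IP + LC replicate 2. The causes were not tested.

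Tumors with the same replicate number correlated at 0.026, -0.12 and 0.112 in their deviations from the group means. Those with different numbers correlated at -0.142 to 0.126. With 3 tumors in each group, such values cannot decide whether the numbers pair the tumors. With the replicate block, 32 antiviral genes were called higher and 0 lower, and 52 pathway genes were called higher and 1 lower.

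Depth limits Mx1, Mx2, Oas1b, Oas1g, Phf11a, Ikbke, Cgas, Gm12250, Gbp2b, Tgtp1 and Gbp6, which had at most 8 UMIs in any LC tumor, and Ifng, which had 0.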
